A study of Mus musculus with 4 samples.

Results

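The Zfp genes are the mouse genes named for a zinc finger protein and numbered without a further family name. Members were chosen by their name, by their protein-coding label and by at least 400 reads summed over the 4 libraries. This selected 260 of the 348 Zfp genes listed at both stages, among 16181 genes listed at both stages in all. The other 88 Zfp genes had fewer reads, and 10 more were listed at 1 stage only. Because summed reads chose the members, the levels below are a description. The members nearest the threshold were Zfp764, Zfp14 and Zfp970, with 407, 409 and 412 summed reads, and the genes just below it were Zfp472, Zfp975 and Zfp653, with 398, 397 and 391.

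A zinc finger is a short loop of protein held in shape by a zinc ion, which in the common C2H2 type is bound by a pair of cysteines and a pair of histidines. Arrays of C2H2 fingers read DNA, and many mouse Zfp proteins also carry a KRAB domain, which recruits TRIM28 and, through it, the histone methyltransferase SETDB1 to silence retroelements and imprinted regions. A few members work otherwise, such as the CCCH protein Zfp36 (tristetraprolin), which binds AU-rich stretches of messenger RNA and brings about their decay.

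RNA was taken from brain endothelial cells of C57BL/6 mouse embryos at embryonic days 15 (E15) and 18 (E18). At each stage 1 wild-type library stood beside 1 library from UCP2f/f;Tie2-cre embryos, in which the floxed Ucp2 gene is exposed to a Cre recombinase driven by the Tie2 promoter, active in endothelial cells and in most blood cells. The study asks about endothelial UCP2, a carrier of the mitochondrial inner membrane, in the developing brain. The sources used here do not say how the cells were isolated or how many embryos went into a library.

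The libraries held 15542930 (wild type E15), 16328300 (knockout E15), 19075407 (wild type E18) and 21992660 (knockout E18) reads in genes. Ucp2 had 4285, 2666, 6696 and 3296 reads in the same order, lower in the knockout library at each stage and still present in both. Summed over 15 endothelial markers the level was between 29351 and 32504 CPM (reads scaled to a common library total) in every library. Single markers varied more than the sum, such as Flt1 at 1328, 2939, 1024 and 1317 CPM in the same order. The 11 microglial markers, of which Trem2 was not listed at both stages and Tmem119 had a library at 0, summed to 601 CPM in wild type and 290 CPM in the knockout at E15, and to 37.6 and 64.0 CPM at E18. The mural markers summed to 6841, 4496, 8702 and 10808 CPM in library order, and the neuronal markers to 121, 65.4, 59.5 and 55.5 CPM. Erythroid markers summed to 404, 513, 917 and 721 CPM, and fibroblast markers to 309, 147, 211 and 213 CPM. Markers of neural progenitors and astrocytes summed to 275, 409, 319 and 307 CPM. At E18 the wild-type library had 5826 reads of the Y-linked Ddx3y and 0 of Xist, and the knockout library had 0 and 547, so embryo sex and genotype cannot be told apart at E18. At E15 Xist had 2549 reads in wild type and 2109 in the knockout, and Ddx3y was not listed. The wild-type libraries thus differed in Xist between stages too, so embryo sex and stage cannot be told apart in wild type. The additive test below uses the same libraries. The part of these differences in the results below was not tested. In bulk RNA, fewer cells of a type and less RNA per cell cannot be told apart.

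Ratios are given as log2 of (CPM + 1) in one library over that in another, and a gene past 2-fold on this scale is called higher or lower. With 1 library per group these ratios have no replicate check and no p-value. Where an interval is given, it is the exact 95% Clopper-Pearson interval of the log2 ratio of scaled reads without the added 1 CPM, and it covers counting error only. For weak genes it can therefore lie outside the ratio itself. The same quantities over all 9544 protein-coding genes with at least 400 summed reads are given as background.

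The repeat that gives the family its name can be read in the coding sequence of Zfp420, the member with the lowest knockout over wild-type ratio at E18. Its fingers 5, 6 and 7 follow each other without a gap on the plus strand of chromosome 7 (GRCm38), at chr7:29874783-29874866, chr7:29874867-29874950 and chr7:29874951-29875034. Capitals mark the codons of the 2 cysteines and 2 histidines that hold the zinc.
Zfp420 finger 5: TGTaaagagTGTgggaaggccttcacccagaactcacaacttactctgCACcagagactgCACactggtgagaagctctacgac
Zfp420 finger 6: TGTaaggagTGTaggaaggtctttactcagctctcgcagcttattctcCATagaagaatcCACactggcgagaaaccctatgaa
Zfp420 finger 7: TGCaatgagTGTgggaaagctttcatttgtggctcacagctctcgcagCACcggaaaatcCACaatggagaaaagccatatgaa
These 84-base units matched each other at 62 bases (fingers 5 and 6), 57 (5 and 7) and 55 (6 and 7). The first CCCH finger of Zfp36 has a different spacing, shown here with its 3 cysteine codons and 1 histidine codon in capitals, from the minus strand at chr7:28378158-28378217 (GRCm38).
Zfp36 CCCH finger 1: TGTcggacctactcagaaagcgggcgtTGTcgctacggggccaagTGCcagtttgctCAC

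By the single protein domain that the deposited tables list for each gene, 137 members were KRAB members and 123 were not. The tables list 1 domain per gene, so a member outside the KRAB class, such as Zfp420, may still encode a KRAB domain. Among the 123, 63 were listed with a C2H2 finger pair and 11 with a SCAN domain, a dimerization domain. Searching the GENCODE M21 proteins for the C2H2 spacing gave a median of 10 fingers, 11 in the KRAB members and 7 in the others. Zfp142 had the most, 36, followed by Zfp462 with 33. No match was found in Zfp36, Zfp330, Zfp503 and Zfp703.

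Zfp genes were weakly expressed for their length. The mean level over the 4 libraries had a median of 3.47 CPM per kilobase of exon over the members, 3.00 over the KRAB members and 4.14 over the others, against 7.91 over all genes tested. Zfp36 stood highest, with 150, 123, 370 and 245 CPM per kilobase in the wild-type E15, knockout E15, wild-type E18 and knockout E18 libraries. Zfp422 came next at E15, with 104 CPM per kilobase in wild type and 101 in the knockout, then Zfp362 with 69.7 and 56.0. Of the KRAB members, Zfp69 was the highest per length at E15, with 51.2 and 69.1 CPM per kilobase. The median member had 1189 summed reads and the median gene 2728, so counting error was larger for the members.

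The members with the most summed reads were of mixed function. Zfp422 had 5851, 5979, 6252 and 7090 reads in the order of libraries used above, and its 4 ratios lay between -0.20 and -0.02. Zfp207, a protein of the mitotic spindle, had 5080, 4353, 3930 and 4634 reads and was lower at E18 by a ratio of -0.66 in wild type and -0.34 in the knockout. Zfp706 had 3265, 3640, 3790 and 5337 reads and Zfp266, a KRAB member, 2772, 3467, 3065 and 3703, with ratios between -0.33 and 0.29. Zfp362 had 3305, 2790, 5414 and 6248 reads, higher in each E18 library than in either E15 library. Zfp366, a corepressor of nuclear receptors, was likewise higher at E18, with 2029, 2089, 4325 and 4004 reads. At the other end, the steadiest members were Zfp202, Zfp507, Zfp830 and Zfp945. Zfp202 lay between 5.91 and 6.29 CPM in all 4 libraries.

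Zfp36 was the most abundant member and the only one that passed the additive test across stages. It had 8094 reads (521 CPM) in the wild-type E15 library, 6985 (428 CPM) in the knockout E15, 24458 (1282 CPM) in the wild-type E18 and 18714 (851 CPM) in the knockout E18. Both E18 libraries were above both E15 libraries, and at each stage the knockout was below the wild type. The E18 over E15 ratio was 1.30 in wild type (interval 1.26 to 1.34) and 0.99 in the knockout (0.95 to 1.03), which was past 2-fold at 1.10 under the TMM scaling of edgeR. The knockout over wild-type ratio was -0.28 at E15 and -0.59 at E18 (-0.62 to -0.56). The difference between the 2 genotype ratios was not tested.

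Zfp36 is known as an immediate early gene, and 16 other immediate early genes had enough reads to set beside it. Their median E18 over E15 ratio was 0.65 in wild type, with 13 of 16 above 0, and 0.30 in the knockout, with 10 above 0. At E18 the knockout over wild-type median was -0.49, with 14 of 16 below 0 and 1 past 2-fold, Fosb, at 468, 309, 1151 and 382 CPM in library order. Fos had 2885, 2288, 6888 and 3620 CPM and Egr1 915, 733, 2959 and 1578 CPM, each highest in the wild-type E18 library as Zfp36 was. Ier2, at 825, 1099, 580 and 886 CPM, was lowest there.

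**Figure D1:**
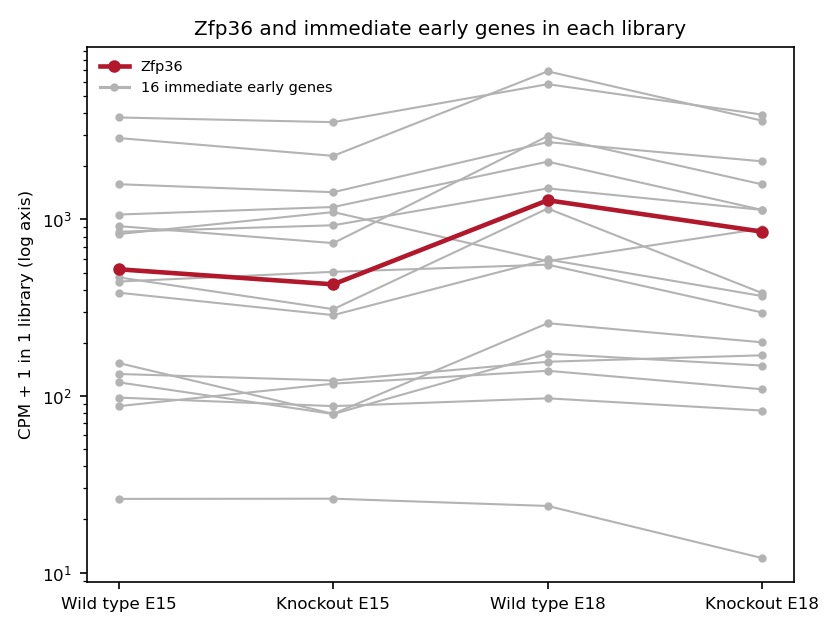
Level of Zfp36 (red) and of 16 immediate early genes (grey) in each of the 4 libraries, as CPM + 1 on a log axis; lines join the values of 1 gene. Zfp36 runs from 521 and 428 CPM at E15 to 1282 CPM in the wild-type and 851 CPM in the knockout E18 library.

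The RefSeq promoter of Zfp36 held a match to the serum response element, the site at which serum response factor acts on many immediate early genes. The match began 58 bases before the start site, and 3 of the 212 members with a RefSeq promoter had one (1.42%), against 1.57% of all 27025 promoters of the same length. It is shown in capitals in the 100 bases at chr7:28379232-28379331 (GRCm38.p6, minus strand, 5′ to 3′).
Zfp36 promoter: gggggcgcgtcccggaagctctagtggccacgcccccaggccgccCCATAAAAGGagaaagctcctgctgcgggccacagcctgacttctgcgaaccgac
The gene products that act with Zfp36 in decay of AU-rich messages were described through a list of 20. None of the 20 was past 2-fold between genotypes, where between 1.4% and 2.22% of all genes tested were in each direction. A count of 0 among 20 genes lies near those shares. The medians of the 20 were 0.07 at E15 and -0.08 at E18. Between stages 1 was lower in wild type (5.0%, against 4.21% of all genes). In the knockout 0 were called, where 3.0% of all genes were higher and 7.29% lower.

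Between genotypes at E15, 5 of the 260 members were past 2-fold. Zfp622 was the 1 higher (0.385%), where 2.22% of all genes tested were, and 4 were lower (1.54%), where 1.4% were. The median ratio of the members was 0.01, with 132 above 0 and 128 below. The KRAB median was 0.05 and that of the other members -0.03. All 4 lower members were KRAB members.

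Zfp622, which acts in maturation of the large ribosomal subunit, had 90 reads in wild type and 403 in the knockout at E15, and 56 and 117 at E18. The knockout E15 library stood above the other 3, with a genotype ratio of 1.92 (interval 1.76 to 2.44) there and 0.68 at E18. Zfp65 had 231 reads in wild type and 48 in the knockout at E15 and 209 and 216 at E18. Its knockout E15 library was below the other 3, at a ratio of -2.01 (-2.82 to -1.88). Zfp157 also had its lowest level in the knockout E15 library, with 255, 87, 156 and 184 reads and a ratio of -1.46 at E15 and 0.03 at E18. Zfp229, with 314, 144, 253 and 402 reads, had ratios of -1.11 and 0.43.

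Between genotypes at E18, 19 members were past 2-fold. Of these, 6 were higher in the knockout (2.31%), where 1.61% of all genes tested were, and 13 were lower (5.0%), where 1.83% were. The median ratio was -0.11, against 0.01 over all genes, and 149 of 260 members lay below 0 (57.3%), against 48.7% of all genes. The median was -0.14 in the KRAB members, with 86 of 137 below 0, and -0.02 in the others, with 63 of 123 below 0. Among genes with fewer than 1613 summed reads, which include 160 members, 8.12% of the members and 4.65% of all genes were lower. Between that and 4677 reads it was 0.0% of 75 members and 0.692% of all genes. Above 4677 reads it was 0.0% of 25 members and 0.157% of all genes. Among genes with more than 6291 bases of exon sequence the median was -0.22 over 85 members and -0.09 over all genes. Of the 61 members on chromosome 7, where Ucp2 also lies, 3 were higher (4.92%) and 7 lower (11.5%). Of all 692 genes tested on that chromosome, 2.31% were higher and 4.05% lower. On other chromosomes 3 of 199 members were higher (1.51%) and 6 lower (3.02%). The part of read number, length and chromosome in the members' values was not tested.

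Zfp420 had 333 reads in wild type and 221 in the knockout at E15, and 421 and 59 at E18. The knockout E18 library stood below the other 3, at a genotype ratio of -2.65 (interval -3.46 to -2.64) and -0.63 at E15. Zfp446, a SCAN member, had 243, 220, 375 and 85 reads and a ratio of -2.09 at E18 (-2.70 to -2.0). Zfp329 had 241, 365, 368 and 109 reads, with a ratio of 0.50 at E15 and -1.77 at E18. In these 3, as in all 13 lower members, the knockout E18 library was the lowest of the 4. Zfp729a, a KRAB member with 27 fingers, had 179, 96, 157 and 42 reads and was lower in the knockout at both stages, at -0.86 and -1.67. Zfp101, with 368, 205, 201 and 69 reads, was also below the wild type at both stages (-0.86 and -1.48). The other 8 lower members, Zfp248, Zfp930, Zfp850, Zfp719, Zfp334, Zfp668, Zfp236 and Zfp382, had ratios between -1.48 and -1.05. Zfp668 overlaps Zfp646 on the other strand, and reads of the pair may be shared.

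In 5 of the 6 higher members the wild-type E18 library was the lowest of the 4. Zfp579 had 202, 137, 55 and 239 reads and a ratio of 1.61 (interval 1.49 to 2.36), with its other 3 libraries at 137 reads or more. Zfp583, a KRAB member, had 118, 156, 44 and 181 reads and a ratio of 1.48. Zfp953 was the exception, with 29, 51, 86 and 291 reads, where the knockout E18 library stood above all others (ratio 1.37). Zfp979 and Zfp7 were higher by 1.11 and 1.12, and Zfp14 by 1.23.

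**Figure D2:**
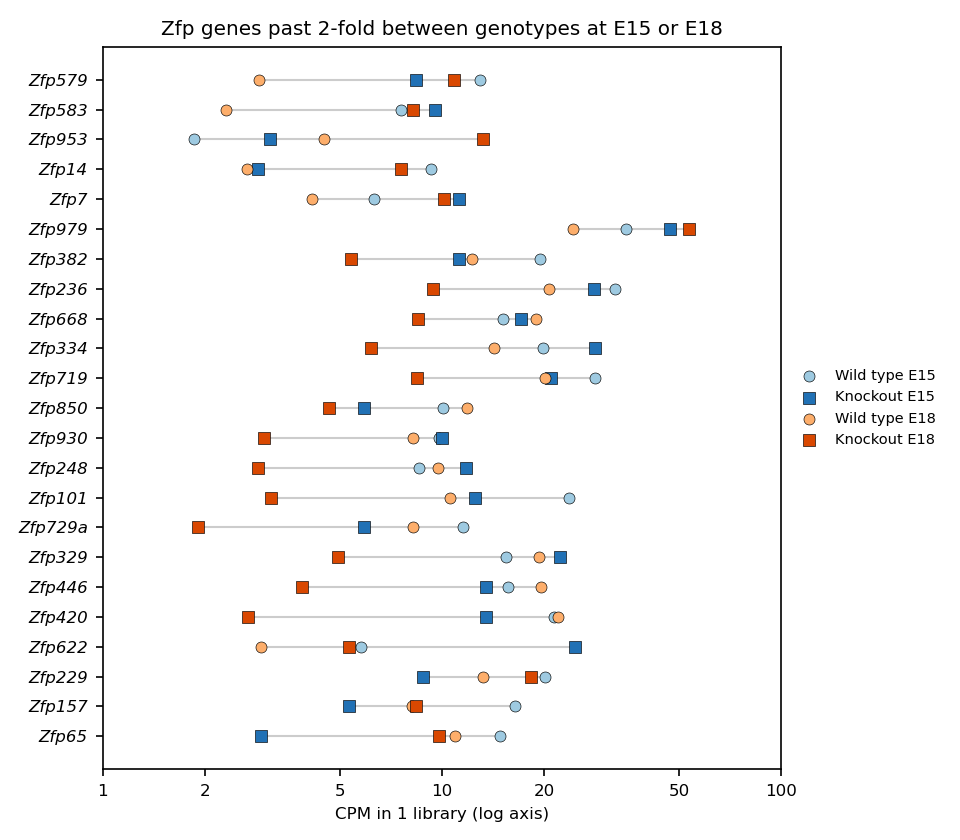
Level of each Zfp gene past 2-fold between genotypes at E15 or E18, in CPM on a log axis, with 1 symbol per library and a grey line from the lowest to the highest. All 13 genes lower at E18 have the knockout E18 square to the left of the other 3 symbols, as Zfp420 at 2.68 CPM.

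No member was past 2-fold the same way at both stages between genotypes, and few genes were: 22 of all 9544 were higher at both (0.231%) and 13 lower (0.136%), so that 0 of 260 lies near the share of all genes. Zfp14, a KRAB member, was called in opposite directions (1 of 260 members, 0.385%), as were 16 genes in all (0.168%). At E15 it had 144 reads (wild type) and 47 (knockout), and at E18 51 and 167. Its ratios between genotypes were -1.40 (interval -2.19 to -1.20) and 1.23 (1.05 to 1.99). Zfp14 was therefore high in the wild-type E15 and knockout E18 libraries and low in the other 2. Its 409 summed reads lie near the threshold for members, and the difference between stages was not tested.

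**Figure D3:**
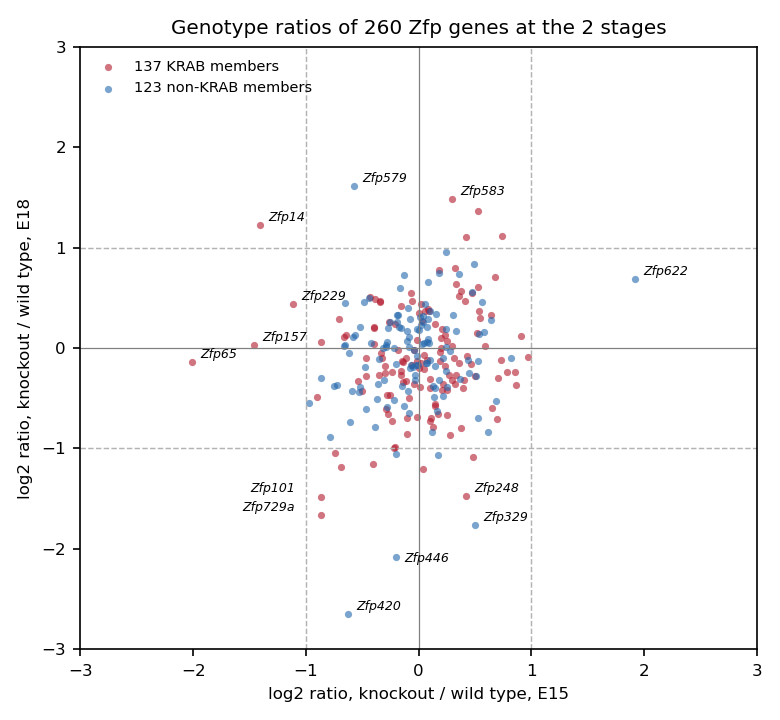
Knockout over wild-type log2 ratio of (CPM + 1) at E15 (horizontal) and E18 (vertical) for 260 Zfp genes, 137 KRAB members in red and 123 others in blue, with dashed lines at 2-fold. No gene lies past the dashed lines in the upper right or lower left corner, and Zfp14 lies in the upper left at -1.40 and 1.23.

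From E15 to E18 in wild type, 12 members were past 2-fold. At E18 4 were higher (1.54%), where 2.19% of all genes tested were, and 8 were lower (3.08%), where 4.21% were. The members' median was -0.17 and that of all genes -0.09, with 64.2% of members and 60.2% of all genes below 0. Scaling by TMM factors instead of library totals raised the all-gene median by 0.12 in wild type and 0.11 in the knockout. Relative to the all-gene median, the members' median was -0.08 in wild type under either scaling and -0.15 in the knockout. With TMM factors the wild-type calls were 5 higher and 5 lower.

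Zfp536, a repressor of neuronal differentiation, was the lowest, with 192 reads in wild type and 231 in the knockout at E15, and 16 and 46 at E18. Both E18 libraries were below both E15 libraries, and the ratios were -2.86 in wild type and -2.29 in the knockout. Neuronal markers summed to 121 CPM in the wild-type E15 library and to between 55.5 and 65.4 CPM in the other 3, and their part in this difference was not tested. Zfp184 (413, 326, 173 and 206 reads) and Zfp74 (476, 500, 269 and 268) were lower at E18 in both genotypes, as was Zfp101. Zfp414 was higher in both, with 42 and 46 reads at E15 and 154 and 184 at E18, a ratio of 1.29 in wild type and 1.30 in the knockout. These 5 were the members called the same way in both genotypes. The 1 higher is 0.385% of the members, where 85 of all 9544 genes were (0.891%), and the 4 lower are 1.54%, where 174 were (1.82%), shares not above those of all genes. Under TMM scaling Zfp101 and Zfp74 were no longer past 2-fold in wild type, nor Zfp184 in the knockout.

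The wild-type calls named next were not past 2-fold in the knockout, and the difference between genotypes was not tested. Zfp579 and Zfp583 had E18 over E15 ratios of -1.85 and -1.38 in wild type and of 0.34 and -0.19 in the knockout. Zfp518a had 176, 273, 462 and 321 reads and a ratio of 1.03 in wild type, and Zfp874b 71, 92, 231 and 194 reads and 1.24. In the knockout their ratios were -0.18 and 0.57.

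From E15 to E18 in the knockout, 37 members were past 2-fold, the most of the 4 comparisons. Of them 5 were higher (1.92%), where 3.0% of all genes tested were, and 32 were lower (12.3%), where 7.29% were. The median was -0.22 over the members and -0.07 over all genes. The KRAB members had a median of -0.33, with 94 of 137 below 0 and 21 lower past 2-fold, and the other 123 had -0.11, with 72 below 0 and 11 lower. Relative to all genes the KRAB median was -0.26, under TMM scaling as well, and that of the others -0.04. The median of the others was 0.0039 with DESeq2 size factors, so its sign depended on the scaling. Among genes with fewer than 1613 summed reads, 16.2% of the members and 13.2% of all genes were lower. This comparison and the genotype comparison at E18 share the knockout E18 library, so their values are not independent.

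After Zfp536, the lowest members were Zfp334 and Zfp622, both at -2.02. Zfp334, a KRAB member, had 309, 461, 272 and 136 reads, and its knockout libraries were the highest at E15 and the lowest at E18. Zfp420 and Zfp329 were at -1.98 and -1.97. Zfp65 (1.46), Zfp111 (1.17) and Zfp953 (1.79) were among the higher, and for Zfp65 and Zfp111 the knockout E15 library was the lowest of the 4. Zfp111 had 401, 224, 588 and 706 reads.

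The knockout E18 library held the lowest level of 101 members (38.8%), and of 61 of the 137 KRAB members (44.5%), against 30.4% of all genes tested. It held the highest level of 40 members (15.4%), against 23.1% of all genes. The range over the 4 libraries had a median of 0.69 on the log2 (CPM + 1) scale in the members and 0.54 in all genes. Counting error was larger for the members, with a median of 1189 summed reads against 2728. Its part in this range was not tested.

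**Figure D4:**
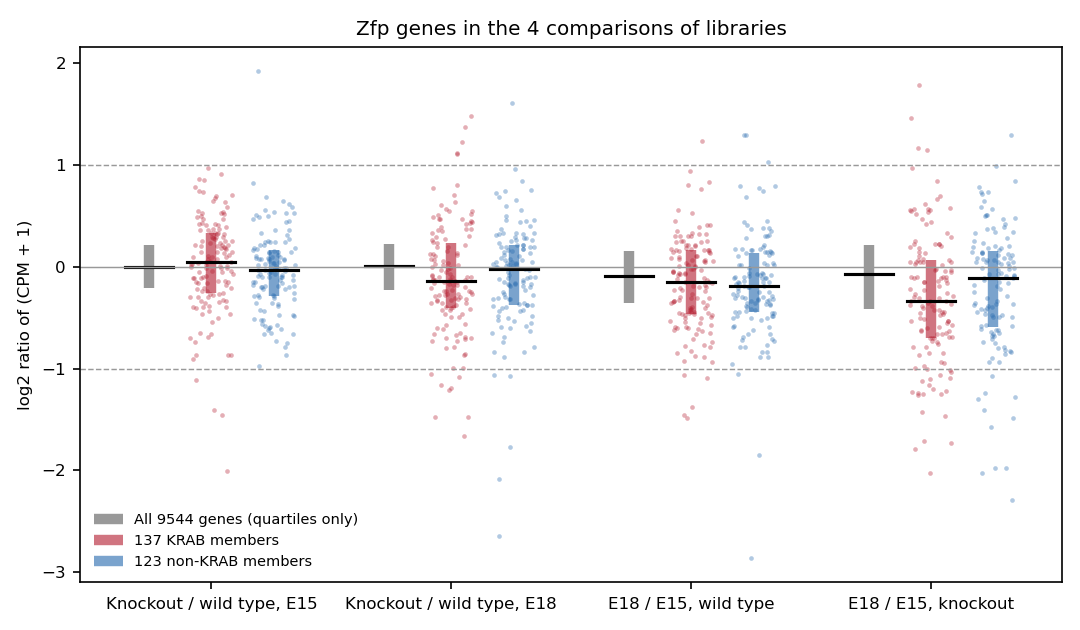
Log2 ratios of (CPM + 1) in the 4 comparisons, with 1 point per Zfp gene (137 KRAB members in red, 123 others in blue), thick bars from the lower to the upper quartile, black lines at the medians, and all 9544 genes tested as a grey bar without points. The KRAB median is lowest in the knockout from E15 to E18, at -0.33.

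The additive test used all 4 libraries at once, with terms for stage and genotype, and left 1 residual degree of freedom. Its p-values rest on how alike the stage difference was in both genotypes and carry no information on variation among embryos. All 260 members entered it among 13416 genes. For stage, edgeR's quasi-likelihood test with Benjamini-Hochberg adjustment called 1 member higher at E18, where 0.395% of all genes were, and 0 lower, where 0.365% were. That member was Zfp36, which rose by a log2 fold change of 1.15 (adjusted p = 0.032; higher at E18 in both genotypes). Zfp536, at -3.28, did not pass (adjusted p = 0.052) but did so in edgeR with TMM factors (adjusted p = 0.039). Over the alternative fits in edgeR and DESeq2 its adjusted p ran from 0.000188 to 0.087, and that of Zfp36 from 7.6e-13 to 0.0497. At an unadjusted p under 0.05, 53 members stood apart by stage (20.4%, against 16.9% of all genes), 11 higher and 42 lower. This gap depended on the setting. The shares of members and of all genes were 17.3% and 16.7% with TMM factors, and 14.2% and 15.6% in DESeq2. DESeq2 called 9 members by stage, 3 higher (1.15%), where 2.03% of the 12895 genes with an adjusted p were, and 6 lower (2.31%), where 3.82% were.

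For genotype the same edgeR test called 0 members, 0.0% of all genes being higher and 0.0% lower. At an unadjusted p under 0.05 there were 20 members (7.69%, against 5.01% of all genes), 7 higher and 13 lower in the knockout. The shares of members and of all genes were 8.08% and 5.12% with TMM factors, and 4.62% and 4.55% in DESeq2. After adjustment DESeq2 called 0 members, where 0.253% of all genes were higher and 0.0671% lower. In the edgeR test the smallest p belonged to Zfp101, lower by a log2 fold change of -1.32 (adjusted p = 0.895; lower in the knockout at both stages). Zfp326 came next, with 501, 298, 366 and 218 reads and a log2 fold change of -0.89 (adjusted p = 0.895). It belongs to a complex that couples transcription to splicing, and its ratios were -0.79 at E15 and -0.89 at E18.

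The members that act on RNA or the ribosome, 8 with enough reads, included Zfp36 and Zfp622, the only 2 of them past 2-fold in any comparison. Zfp638 lay between 77.2 and 115 CPM and Zfp106 between 33.8 and 41.6 CPM over the 4 libraries. Zfp598, a sensor of collided ribosomes, had 161, 179, 163 and 167 reads, and Zfp346, a double-stranded RNA binding protein, 403, 442, 417 and 661. The ratio farthest from 0 among these 4 genes was -0.49, for Zfp638 between stages in the knockout.

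The list of broadly acting transcription factors held 10 members, among them Zfp207, described above as a protein of the mitotic spindle. None of the 10 was past 2-fold in any comparison, where between 1.4% and 7.29% of all genes tested were in each direction. A count of 0 among 10 genes lies near those shares. Their medians were -0.02 and 0.07 between genotypes and -0.18 and -0.19 between stages. Zfp148 had 1204, 1255, 1364 and 1802 reads and Zfp281, which like it binds GC-rich DNA, 782, 766, 862 and 1121. Zfp410, known for activating Chd4, had 1981, 2582, 2249 and 3254 reads and was higher in the knockout by 0.31 at E15 and 0.33 at E18. Chd4, a subunit of the NuRD repressor complex, lay between 152 and 157 CPM in the 4 libraries.

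Of the 10 corepressors and lineage factors, only Zfp536 was past 2-fold in any comparison. Zfp423 had 604, 569, 596 and 791 reads and its relative Zfp521 981, 1402, 1323 and 1407. Zfp703 and Zfp503, which lack a C2H2 array, had 341, 260, 374 and 617 reads and 107, 159, 233 and 222. Zfp516 was higher at E18 in both genotypes, with 274, 258, 596 and 525 reads and ratios of 0.79 and 0.57.

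Members known for guarding imprints or silencing retroviral sequence had stage ratios below 0 in 4 of 5 cases in each genotype. Zfp57, which keeps methylation at imprinted regions, had 666, 751, 536 and 496 reads, a ratio of -0.59 in wild type and -0.997 in the knockout. Zfp445, which shares that task, had 2330, 2303, 2204 and 1612 reads, with the knockout E18 library the lowest, and ratios of -0.37 and -0.93. Zfp809, which silences retroviral DNA, had 199, 284, 153 and 253 reads, higher in the knockout at each stage, at 0.41 and 0.47. Zfp961 followed the same order, with 698, 1064, 496 and 882 reads. Zfp568, a repressor of a placental Igf2 promoter, was the exception, with 602, 555, 775 and 879 reads and stage ratios of 0.07 and 0.23. None of the 5 was past 2-fold in any comparison, where between 1.4% and 7.29% of all genes tested were in each direction. A count of 0 among 5 genes lies near those shares. The medians of the 5 between stages were -0.59 in wild type and -0.69 in the knockout, against -0.09 and -0.07 over all genes.

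The proteins through which KRAB members repress were described through a list of 28 genes, 27 of them with enough reads. None of the 27 was past 2-fold between genotypes, where between 1.4% and 2.22% of all genes tested were in each direction. A count of 0 among 27 genes lies near those shares. The medians of the 27 were -0.13 at E15 and -0.03 at E18. Trim28 itself was at 31.2 CPM in wild type and 51.9 CPM in the knockout at E15, and at 23.7 and 23.1 CPM at E18, highest in the knockout E15 library. Setdb1 was at 56.7, 61, 83.1 and 56.0 CPM, highest in the wild-type E18 library. From E15 to E18 the medians were -0.10 in wild type, with 1 lower past 2-fold (3.70%, against 4.21% of all genes), and -0.16 in the knockout, with 1 higher (3.70%, against 3.0%) and 3 lower (11.1%, against 7.29%). Counts this small lie near those shares. Kdm1a, a histone demethylase, was lower in both genotypes (40.7, 39.0, 17.9 and 13.3 CPM). In the knockout Atrx and Trim28 were lower too and Cbx3 higher.

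Mouse Zfp genes lie in clusters of related copies. Of the 260 members 118 (45.4%) lay in 14 clusters, taken as at least 5 members with neighbours at most 1 Mb apart, and chromosomes 7, 17 and 13 held 61, 36 and 21 members. On chromosome 7 a pair of neighbouring clusters had opposite genotype ratios at E18. The 7 members at chr7:6131491-7209998, Zfp787, Zfp444, Zfp667, Zfp583, Zfp28, Zfp954 and Zfp772, had a median of 0.37, 6 of them above 0. The 5 members at chr7:12478293-12985714, Zfp606, Zfp329, Zfp110, Zfp324 and Zfp446, had a median of -0.78, all 5 below 0. At E15 the medians were 0.26 and 0.13. Inside the first span the 1 other gene tested had a ratio of -0.49 at E18. Inside the second the 3 others had a median of 0.02. The members were grouped by position, not by value, but these 2 clusters were singled out among 14 after their values were seen, and no test was made.

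**Figure D5:**
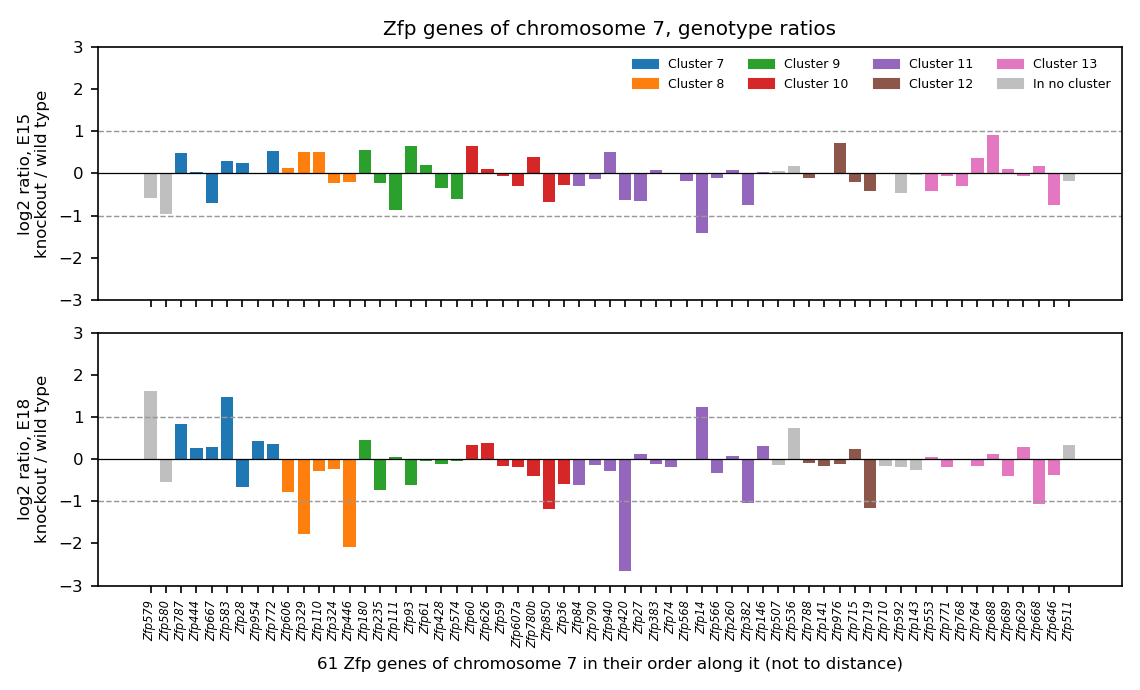
Knockout over wild-type log2 ratio of (CPM + 1) at E15 (top) and E18 (bottom) for the 61 Zfp genes of chromosome 7 in their order along it, coloured by cluster, with dashed lines at 2-fold. At E18 the 5 genes of cluster 8 are all below 0 and 6 of the 7 genes of cluster 7 are above 0.

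Near-identical copies can split or share reads. In 11 members at least 10% of the transcript matched another listed gene at 97% identity or more over at least 100 bases, and 16 overlapped another gene. Without the 11, the genotype medians were 0.01 at E15 and -0.12 at E18, and the counts past 2-fold between genotypes stayed at 1 higher and 4 lower at E15 and 6 higher and 13 lower at E18. Of the named members, Zfp335 and Zfp970 were among the 11.

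A sequence that the choice of members did not use was more frequent in promoters of the Zfp genes than in promoters at large, though most of them lacked it. The letters ACTACA, then any 2 bases, then TCC, the core of a site bound by Zfp143, were found on either strand within 250 bases before to 50 bases after the start site in 37 of 212 members with a RefSeq promoter (17.5%) and in 2.15% of all 27025 promoters. Among the KRAB members the share was 24.6% (29 of 118), and among the others 8.51% (8 of 94). The ETS letters CCGGAAG were in 20.8% of the members' promoters and 9.12% of all, and the letters TATAAA in 5.19% and 14.2%. The AP-1 letters TGANTCA were in 3.77% and 7.93%. Those searched for Sp1 were in 33.0% and 25.8%, and those for NRF1 in 8.02% and 4.78%. The members were chosen by reads and by a protein-coding label, and the 27025 promoters were not. The part of this unlike background in the shares was not tested. A match describes letters only, and promoters of related copies are not independent of each other.

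The Zfp143 letters are shown here for 9 of the members described above, a list that is not complete. The letters are in capitals with 20 bases on each side, as they run 5′ to 3′ on the gene's own strand. These 9 genes were taken from the named members whose promoter held a match, without a further choice by level. In the first 2 the letters are as written above, and in the other 7 they run on the opposite strand. The regions are of GRCm38.p6. On the minus strand lie Zfp14 (chr7:30051380-30051430), Zfp111 (chr7:24208182-24208232), Zfp334 (chr2:165388346-165388396), Zfp65 (chr13:67729160-67729210), Zfp729a (chr13:67637784-67637834), Zfp74 (chr7:29954085-29954135), Zfp874b (chr13:67484257-67484307) and Zfp953 (chr13:67360616-67360666). Zfp420 (chr7:29859900-29859950) is on the plus strand.
Zfp14: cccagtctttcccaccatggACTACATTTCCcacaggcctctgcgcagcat
Zfp420: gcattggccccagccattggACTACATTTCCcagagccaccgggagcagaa
Zfp111: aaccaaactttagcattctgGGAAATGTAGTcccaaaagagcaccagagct
Zfp334: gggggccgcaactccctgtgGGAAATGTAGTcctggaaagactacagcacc
Zfp65: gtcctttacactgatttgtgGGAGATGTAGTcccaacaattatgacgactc
Zfp729a: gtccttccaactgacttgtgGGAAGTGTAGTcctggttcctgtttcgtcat
Zfp74: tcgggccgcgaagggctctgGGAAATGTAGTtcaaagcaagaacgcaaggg
Zfp874b: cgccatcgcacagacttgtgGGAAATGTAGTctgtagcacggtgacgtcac
Zfp953: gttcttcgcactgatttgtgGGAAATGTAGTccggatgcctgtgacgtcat

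Genes with these letters did not vary in 1 way. Zfp14, Zfp65 and Zfp729a were lower in the knockout at E15, at -1.40, -2.01 and -0.86, whereas Zfp953 was higher at 0.52. At E18 the 37 members with the letters had a median of -0.14, with 22 below 0, and the 175 without had -0.11, with 101 below 0. In the knockout from E15 to E18 the medians were -0.39 and -0.29, respectively. Of the 37, 4 were higher past 2-fold (10.8%) and 7 lower (18.9%), and of the 175, 1 was higher (0.571%) and 18 lower (10.3%), where 3.0% of all genes were higher and 7.29% lower. The difference between the 37 and the 175 was not tested. Zfp143 itself had 665, 682, 594 and 565 reads (42.8, 41.8, 31.1 and 25.7 CPM), and none of its 4 ratios was past 2-fold.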

How the data were processed

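Per the file headers, both deposited tables (E15 and E18) hold raw read counts by Ensembl gene and the authors' CPM. Tools named in the submitters' processing notes, without their roles, are TopHat2 2.0.12, HTSeq 0.6.0 and Bowtie2 2.2.3, and the build named is mm9. Gene positions in the tables were, however, identical to those of GENCODE M21 on GRCm38 for 14389 of 16181 genes (88.9%), so coordinates are given as GRCm38. The sources used here do not say if reads were counted by strand. Library identity, stage and genotype were taken from the labels, with 1 library per group.

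From the deposited counts, CPM was recomputed with the total of all listed genes in each library, and genes listed in both tables were joined. Ratios had 1 CPM added to each level, so those of weak genes are understated, and a call means at least 2-fold. The members, gene lists and tests were chosen with earlier results of these data known. The additive fit used edgeR 4.0.16 (glmQLFit and glmQLFTest, R 4.3.3, library totals as sizes) on genes that reached 1 CPM in 2 or more libraries, with DESeq2 1.42.0 as an alternative. The edgeR stage test was checked on simulated counts, and the genotype term and DESeq2 were not. The counting intervals used SciPy 1.17.1.

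Members named with values were the 8 with most reads, the 4 highest and 4 lowest called per comparison, those called alike at both stages or genotypes, those called by the additive fit, the 3 nearest each side of the threshold, those in lists of known function, and the 4 steadiest. A few others were named after their values were seen, among them the remaining members called between genotypes at E18, Zfp69 and the members of 2 clusters. Fingers, exon lengths and overlaps came from GENCODE M21, copies from BLAST 2.17.0, and promoters from RefSeq (GRCm38.p6), which matched 212 of 260 members by symbol. The first RefSeq start site was used where a gene had several. Protein sequences were not used here.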

Additional observations from a re-analysis of the deposited data

Results flagged for a closer look

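Zfp14 stood out because its knockout and wild-type libraries lay in opposite order at the 2 stages. Its knockout over wild-type log2 ratio was -1.40 at E15 and 1.23 at E18. Seen along the stages, its E18 over E15 ratio was -1.48 in wild type and 1.15 in the knockout. Each value compares 1 library with 1 other, and the difference was not tested. With a pseudocount of 5 CPM none of the 4 ratios of Zfp14 was past 2-fold.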

How the results depend on the processing

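The number of members past 2-fold depended on the floor of reads, the pseudocount and the fold. A pseudocount of 5 CPM gave 3 members between genotypes at E15 (5 as reported), 4 at E18 (19), 4 between stages in wild type (12) and 17 in the knockout (37), and one of 0.1 CPM gave 9 at E15. With at least 1000 summed reads, which leaves 158 members, the counts were 1, 7, 5 and 20 in the same order. With at least 100 summed reads they were 20 at E15, 32 at E18 and 21 in wild type, and with no minimum 23, 33 and 21. A 1.5-fold call gave 43, 59, 58 and 95. The members' median between stages in wild type was -0.054 with TMM factors and -0.064 with DESeq2 size factors, and in the knockout -0.10 with DESeq2 size factors. The additive stage test called 2 members with TMM factors (0.769%, against 1.34% of all genes), 9 with DESeq2 (3.46%, against 5.85%) and 18 with a filter of 5 CPM (6.95%, against 9.3%), where 1 was reported (0.385%, against 0.76%). Some small stage ratios changed sign, such as that of Zfp148 in wild type, -0.11 as reported and just above 0 with TMM factors. Of 976 alternative values of the named members, 865 were counted as inside the counting interval of the reported ratio and 111 as outside it. A value outside it can have moved little. That of Zfp420 between stages in the knockout was -1.98 as reported and -1.89 with TMM factors. No paired analysis was possible because the groups share fewer than 2 replicate numbers. The series' design text mentions replicate profiles, but 1 library per group is analysed here, so no library could be left out.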

Other observations

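The medians of other zinc finger families were also below 0 at E18, where that of the Zfp members was -0.11. In the knockout over the wild-type library the median log2 ratio was -0.29 over 28 Zbtb genes (22 below 0), which pair fingers with a BTB dimerization domain, -0.32 over 17 Klf and Sp genes (13 below 0) and -0.40 over 8 Prdm genes (6 below 0). It was -0.13 over 14 Zscan and Zkscan genes, with 8 below 0. The differences between families were not tested. At E15 the medians of these 4 families lay between -0.09 and 0.15. Of these 67 genes, 1 Zbtb gene was higher past 2-fold at E18 (1.49%, against 1.61% of all genes) and 1 Prdm gene lower (1.49%, against 1.83%). The 9544 genes tested had a median of 0.01 at E18.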
